A study of Rattus norvegicus with 5 samples.

Results

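The cytosolic heat shock proteins described here were a chosen 4 of the 5147 genes named on the array, Hspa1a, Hsph1, Hspa8 and Hspb1. They were read by 13 of its 8740 probe sets in rat lung. Other cytosolic chaperones on the array are set beside them below. A probe set is a group of short probes that together give 1 intensity for a transcript. All probe sets were taken whose platform annotation names one of the 4 genes alone or with a paralog, together with L16764_s_at and Z27118cds_s_at, which are annotated to both Hspa1a and Hspa1b. This gave 5 probe sets for Hspa1a, 2 for Hsph1, 2 for Hspa8 and 4 for Hspb1. Both Hspa8 probe sets also carry the name Haus8l2 and were kept as the only ones that name Hspa8. The probe set rc_AA799438_at, annotated to Asb2 and Hspb1, was left out. The genes were chosen by their intensity differences between the dust and control pools of this same series, so their values are given as a description, without a test.

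Rats received EHC-93, an urban outdoor dust, by intratracheal instillation, and lung RNA was hybridised to 5 arrays, 1 per group. Each array received equal RNA amounts of several samples in 1 pool. The dust pools covered 2, 4 and 6 h (early), 15, 18 and 21 h (intermediate) and 24, 32 and 40 h (late). The saline pool, the sham exposure, covered 2, 15 and 24 h after saline, and the untreated pool came from 3 rats without instillation. No strain, age, sex, dose or number of rats per instilled pool is stated in the labels. With 1 pooled array per group, no difference between arrays has an error or a replicate check, and the number of arrays limits the precision.

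Heat shock proteins are chaperones that hold or refold damaged proteins. When unfolded proteins accumulate, heat shock factor 1 (Hsf1) forms trimers that bind heat shock elements in promoters, and genes such as Hspa1a are transcribed within a short time. Hspa1a is the strongly inducible cytosolic HSP70, and Hspa8 is its constitutively expressed relative. Hsph1, an HSP110 protein, exchanges nucleotide on HSP70 and holds unfolded proteins, and Hspb1 is a small heat shock protein that keeps unfolding proteins soluble and acts on actin filaments. Heat, oxidants and heavy metals are known inducers of the response, in lung as in other tissues.

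The promoter windows of the 4 genes are shown because heat shock factor is known to act through such sequences. All 4 were found in RefSeq's rat assembly GRCr8, each with 250 bases before and 50 after the annotated start. Capitals mark units of the heat shock element: 3 adjoining units (GAANNTTCNNGAA or TTCNNGAANNTTC, each the other's reverse complement) or 2 units (GAANNTTC or TTCNNGAA, each read the same on both strands and also contained in the longer form).
Hspa1a, chr20:3859506-3859805, plus strand: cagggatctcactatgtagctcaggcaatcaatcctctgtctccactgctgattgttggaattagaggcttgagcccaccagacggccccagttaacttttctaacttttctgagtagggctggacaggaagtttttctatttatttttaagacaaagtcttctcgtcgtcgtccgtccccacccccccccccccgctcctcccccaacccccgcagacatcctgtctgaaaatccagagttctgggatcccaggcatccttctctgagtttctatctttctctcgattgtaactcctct
Hsph1, chr12:10427118-10427417, plus strand: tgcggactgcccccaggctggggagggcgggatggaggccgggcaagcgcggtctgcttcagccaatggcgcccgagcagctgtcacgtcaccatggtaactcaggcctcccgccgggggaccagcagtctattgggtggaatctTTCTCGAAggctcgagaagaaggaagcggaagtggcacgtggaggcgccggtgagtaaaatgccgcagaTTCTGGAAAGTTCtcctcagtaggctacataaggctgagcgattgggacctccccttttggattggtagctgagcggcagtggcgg
Hspa8, chr8:50080264-50080563, plus strand: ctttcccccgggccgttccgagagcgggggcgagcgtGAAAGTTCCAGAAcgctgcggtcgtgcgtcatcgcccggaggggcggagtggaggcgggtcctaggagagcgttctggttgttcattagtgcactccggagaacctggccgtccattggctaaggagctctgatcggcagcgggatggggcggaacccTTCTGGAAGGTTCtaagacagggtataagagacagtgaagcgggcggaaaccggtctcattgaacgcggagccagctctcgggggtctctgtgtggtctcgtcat
Hspb1, chr12:26432252-26432551, minus strand: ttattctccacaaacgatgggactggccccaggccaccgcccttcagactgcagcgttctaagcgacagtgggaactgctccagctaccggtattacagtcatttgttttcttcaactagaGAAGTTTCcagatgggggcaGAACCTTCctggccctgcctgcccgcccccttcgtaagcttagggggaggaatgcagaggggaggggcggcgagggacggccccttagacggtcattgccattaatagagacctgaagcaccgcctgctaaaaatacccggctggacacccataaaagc

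The Hsph1 window held the letters of 3 adjoining units once, TTCTGGAAAGTTC with its first base at position -36 from the start, and a separate pair of units, TTCTCGAA, at -105. The Hspa8 window held 3 units at 2 places, GAAAGTTCCAGAA at -213 and TTCTGGAAGGTTC at -55. The Hspb1 window held 2 pairs of units, GAAGTTTC at -129 and GAACCTTC at -109, and no run of 3. In the Hspa1a window at its RefSeq start these letters did not occur, but that start may not be the one of the inducible transcript, so nothing about Hspa1a is read from it. Of all 33469 promoter windows of the same length, 267 (0.798%) held 3 units, 8.59% held GAANNTTC and 8.77% TTCNNGAA. The TATA box letters (TATAAA, or TTTATA on the other strand) were in no window of the 4 genes and in 14.2% of all windows. Only these exact letters were searched, and variants such as tataag in the Hspa8 window were not. A match describes the letters and shows no binding.

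Intensities were scaled to the same median on all arrays, and values under 172.53, the 40th percentile of all scaled values, were set to that floor before log2. Higher or lower is written of a probe set that was at least 2-fold away from the saline pool and from the untreated pool. A fold against a value under the floor is a lower bound. Of the 13 probe sets, 12 exceeded the floor on 1 or more arrays and 9 on all 5. The AA848563_s_at probe set of Hspa1a lay under the floor everywhere, between 16.1 and 70.9. Surfactant protein Sftpc, a defining product of lung epithelium, read 48085, 71970.4 and 67231 in the early, intermediate and late dust pools, against 55179 in the saline and 53586 in the untreated pool. All 9 measured lung epithelial markers of 11 listed were above the floor.

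On the early array 4 of the 13 probe sets were higher and 0 lower, namely 3 of Hspa1a and 1 of Hsph1. Over all 6188 probe sets above the floor on at least 1 array, 3.17% were higher there and 0.452% lower. On the intermediate array the Hsph1 probe set was the 1 member still higher, where 0.824% of all probe sets were, and in the late dust pool 0 members passed, where 0.566% of all probe sets were higher. Since these contrasts chose the genes, nothing is read from the shares. The median log2 difference from the mean of both controls over the 12 probe sets was 0.73 in the early, 0.13 in the intermediate and 0.06 in the late dust pool, beside 0.00, 0.07 and 0.05 over all probe sets. Of the 12, 10 had their highest value in the early dust pool, as had 22.8% of all probe sets. Among these 10, Z27118cds_s_at, rc_AA818604_s_at and AA108277_at were above the floor in the early dust pool alone. Their highest array was therefore fixed by the floor, and they entered the 12 and the medians only through that pool.

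**Figure D1:**
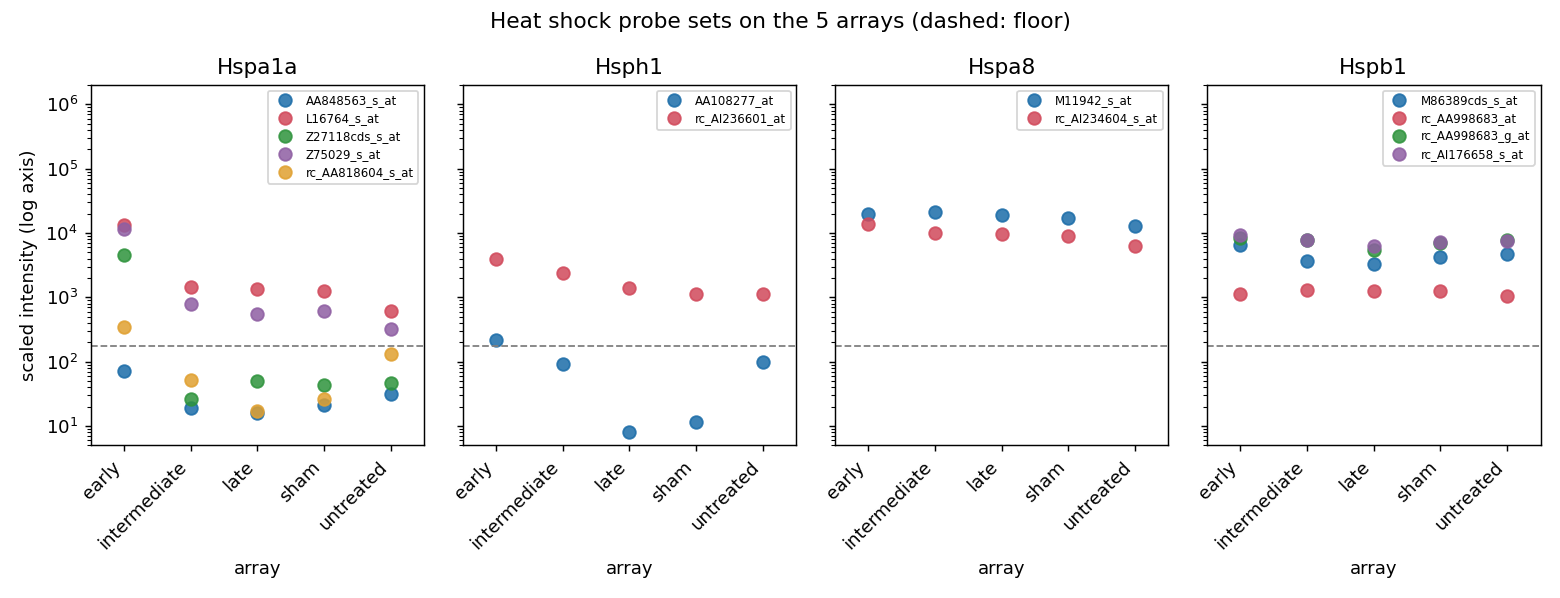
Scaled intensity (log axis) of each probe set, 1 point per array and 1 panel per gene, with the 3 EHC-93 arrays left of the sham and untreated arrays and the floor of 172.53 as a dashed line. The 3 Hspa1a probe sets that were higher stand far above their other values in the early dust pool (13352 for L16764_s_at), and the remaining ones are dim. The main Hsph1 probe set steps down over the 3 phases, and Hspa8 and Hspb1 stay within narrow ranges.

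Hspa1a had the largest differences among the 4 genes, and they were found at the early times. Its probe set Z75029_s_at, annotated to Hspa1a alone, read 11637 in the early, 788 in the intermediate and 557 in the late dust pool, against 615 in the saline and 327 in the untreated pool. This early value exceeded sham by 18.9-fold and untreated by 35.6-fold, and the intermediate and late values were 1.28-fold and 0.906-fold of sham and 2.41-fold and 1.70-fold of untreated. Hence the early array stood far above the other 4, of which the intermediate was above both controls and the late between them.

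L16764_s_at, which reads Hspa1a together with its near-identical paralog Hspa1b, gave 13352, 1470.4 and 1351 in the early, intermediate and late dust pools, against 1263 and 610.5 in the saline and untreated pools. Its early value was 10.6-fold above sham and 21.9-fold above untreated. The untreated array was the lowest of the 5 for both of these probe sets, and the order of the other arrays after the early one was not the same, since the late array was above sham here and below it for Z75029_s_at. That difference in order was seen under the main scaling alone: with the other 3 scalings L16764_s_at was also lower in the late pool than in the saline pool, at 0.968-fold to 0.982-fold. The log2 values of both correlated at Pearson r = 0.99 over the 5 arrays, a description that rests largely on the early value.

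Z27118cds_s_at, a probe set from the coding region of an Hsp70 gene and also annotated to both paralogs, read 4499 in the early dust pool. On the intermediate and late arrays it read 26.1 and 49.4, and in the saline and untreated pools 43.4 and 46.4, all under the floor. The early array was thus at least 26.1-fold above each of the others.

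The 2 remaining Hspa1a probe sets were dim. The EST probe set rc_AA818604_s_at read 342 in the early dust pool, 52.4 and 16.8 in the intermediate and late dust pools, and 26.3 and 131 in the saline and untreated pools, so the early array was at least 1.98-fold above both controls, just short of the call. All 5 probe sets had their highest reading in the early dust pool, including AA848563_s_at, whose readings have no order because they are under the floor. They share target sequence and RNA pools and are not replicates, and whether Hspa1a or Hspa1b gave the signal is uncertain.

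**Figure D2:**
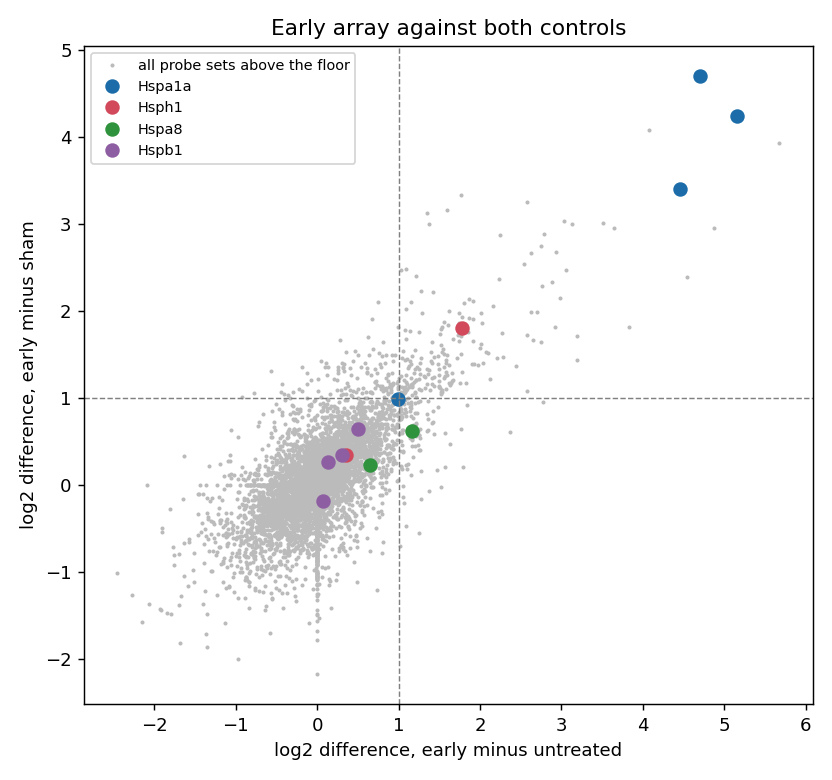
Log2 difference of the early array from the untreated array (horizontal) and from the sham array (vertical), 1 point per probe set above the floor on at least 1 array, with members in colour by gene and dashed lines at 2-fold. The 3 called Hspa1a probe sets lie at the upper right, at 10.6-fold to 26.1-fold above sham, the called Hsph1 probe set is nearer the middle, and those of Hspa8 and Hspb1 lie inside the main cloud or at its edge.

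The quality of the RNA or its labelled copy moved with the early array. The 5′ to 3′ signal ratio of the beta-actin control transcript was 43.1% in the early, 9.07% in the intermediate and 19.6% in the late dust pool, and 14.7% in the saline and 24.4% in the untreated pool. The GAPDH control gave 67.2%, 23.6% and 38.1% in the dust pools, and 25.4% and 39.1% in the saline and untreated pools. Of the 413 probe sets with cds in their name, 6.54% were higher in the early dust pool, against 3.17% of all probe sets. The position of the probes within the Hspa1a transcript is not stated in the labels or tables, and the part of the ratio in the early values was not tested.

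Hsph1 was higher in the early dust pool and, under the main scaling, in the intermediate one. Its probe set rc_AI236601_at read 3905, 2404 and 1409 in the early, intermediate and late dust pools, against 1121 and 1139 in the saline and untreated pools. The folds over sham and untreated were 3.48 and 3.43 in the early, 2.15 and 2.11 in the intermediate, and 1.26 and 1.24 in the late dust pool. All 3 exposed arrays were above both controls, and saline over untreated was 0.984-fold (1.02-fold to 1.07-fold with the other scalings). The early value was 1.62-fold above the intermediate one, which was 1.71-fold above the late one, so Hsph1 stepped down over the phases, whereas Z75029_s_at was 14.8-fold higher in the early than in the intermediate dust pool.

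The intermediate call depended on scaling. Over sham and untreated the intermediate value was 1.87-fold and 1.92-fold with values as deposited, 1.89-fold and 2.03-fold with 75th percentile scaling, and 1.81-fold and 1.93-fold after quantile normalization. Under the main scaling the median log2 difference of this pool from the saline pool, over the 6188 probe sets above the floor, was 0.10. The second Hsph1 probe set, AA108277_at, was above the floor in the early dust pool alone, at 219.9 against 92.9 and 7.92 in the intermediate and late dust pools and 11.5 and 99.8 in the saline and untreated pools. It gives at least 1.27-fold for the early array and no order for the rest.

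Hspa8 was within 2-fold of sham on every exposed array by both probe sets. M11942_s_at read 19784.5, 20936 and 18792 in the early, intermediate and late dust pools, against 16861 in the saline and 12622 in the untreated pool. These were 1.17-fold, 1.24-fold and 1.11-fold of sham and 1.57-fold, 1.66-fold and 1.49-fold of untreated. The EST probe set rc_AI234604_s_at read 13872, 10101 and 9727 in the 3 dust pools in the same order, against 9012 in the saline and 6175 in the untreated pool. Its early value was 1.54-fold of sham and 2.25-fold of untreated, so it did not pass against both. In both probe sets sham was above untreated, by 1.34-fold and 1.46-fold. Every exposed array was above sham under the main scaling, but with the other 3 scalings the intermediate and late values of rc_AI234604_s_at were 0.971-fold to 0.992-fold of sham, and after quantile normalization the late value of M11942_s_at was 0.973-fold. The highest array was intermediate for the first and early for the second, and early for both after quantile normalization.

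Hspb1 was within 2-fold of both controls on every exposed array by all 4 probe sets. The probe set from its coding region, M86389cds_s_at, read 6552, 3711 and 3286 in the early, intermediate and late dust pools, against 4181 and 4627 in the saline and untreated pools. The early value was 1.57-fold and 1.42-fold of the controls, while the intermediate and late values lay below both, the late one at 0.786-fold and 0.710-fold. The early array was the highest and the late array the lowest, with a 1.99-fold range.

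Of the 3 EST probe sets of Hspb1, rc_AI176658_s_at read 9268, 7822 and 6179 in the 3 dust pools and 7284 and 7475 in the saline and untreated pools. From the EST AA998683, rc_AA998683_g_at read 8352, 7772 and 5480.3, against 6963 and 7637, and rc_AA998683_at read 1119, 1300.3 and 1255, against 1273 and 1061. The first and second had the same highest and lowest arrays as the coding-region probe set. The third, although made from the same EST as the second, had its highest value in the intermediate pool (in the saline pool with the other 3 scalings) and its lowest in the untreated pool. Its log2 values correlated with those of the other 3 probe sets at r between -0.68 and -0.41 over 5 arrays, where those 3 correlated with each other at 0.76 to 0.93.

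**Figure D3:**
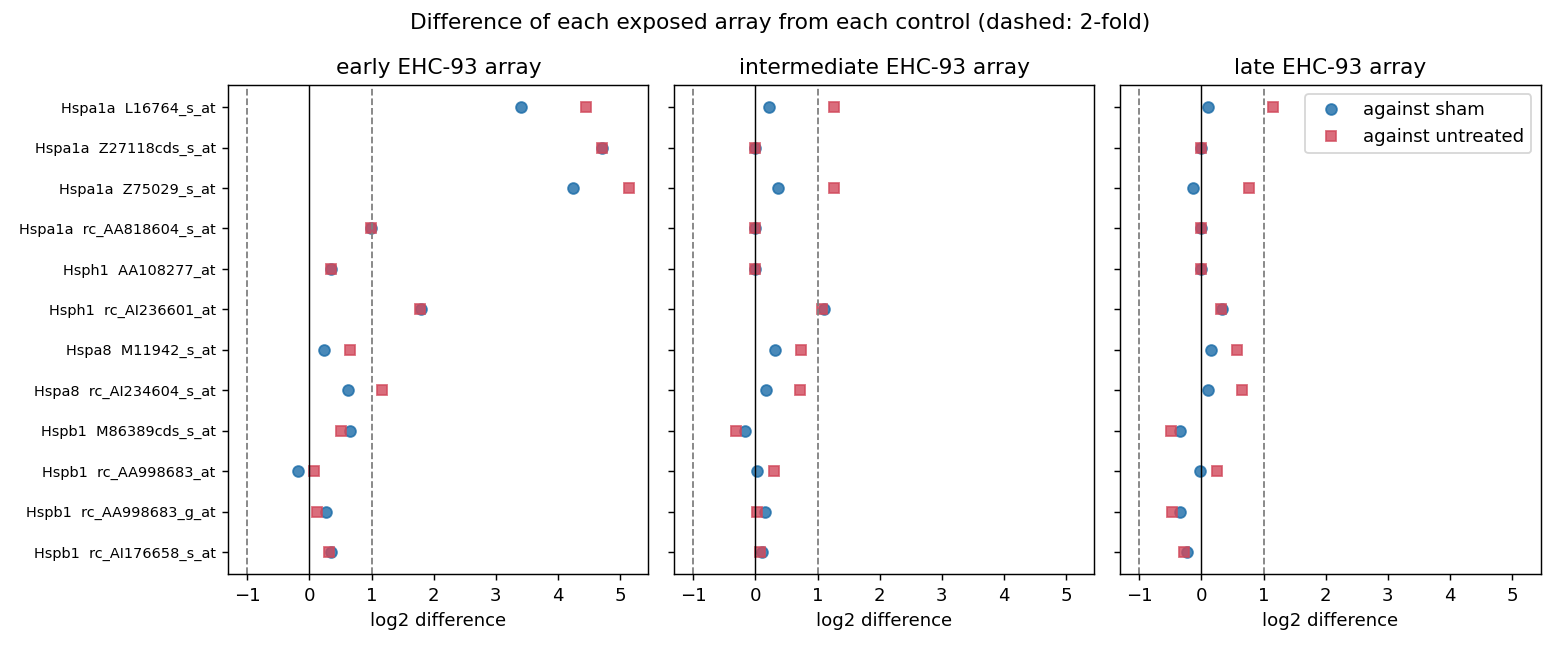
Log2 difference of the early, intermediate and late EHC-93 arrays (left to right) from sham (circles) and from untreated (squares), 1 row per probe set above the floor on at least 1 array, after the floor, with dashed lines at 2-fold. On the early array 4 probe sets are past 2-fold against both controls, in the intermediate dust pool 1 and in the late dust pool 0; the squares of L16764_s_at, Z75029_s_at and both Hspa8 probe sets lie right of their circles because untreated was lower than sham.

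The sham array was above the untreated array in Hspa1a. Saline over untreated was 2.07-fold for L16764_s_at and 1.88-fold for Z75029_s_at. L16764_s_at was the 1 member at least 2-fold higher in the saline pool, with 0 lower, where 1.66% of all probe sets were higher and 1.92% lower. For Hsph1 the ratio of sham to untreated was 0.984-fold, and for the Hspb1 probe sets it lay between 0.904-fold and 1.20-fold. Because the sham pool holds 2 h as well as 15 and 24 h, and the early pool 2, 4 and 6 h, the early times had no saline pool of their own.

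In 4 probe sets, L16764_s_at, rc_AI236601_at and both of Hspa8, all 3 exposed arrays were above both controls by any amount, and in 0 were all 3 below. Over all probe sets the shares were 13.5% and 6.12%. The count of 4 depended on scaling: it was 2 (M11942_s_at and rc_AI236601_at) with values as deposited and with 75th percentile scaling, and 1 (rc_AI236601_at) after quantile normalization, where 7.35%, 7.81% and 8.98% of all probe sets were above.

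Markers of other cells also differed between the pools. Cardiac and skeletal muscle markers (12 of 13 measured, none of them under the floor on all arrays) summed to 24775, 43983 and 18513 in the early, intermediate and late dust pools, against 35398 in the saline and 62945 in the untreated pool. Heart and muscle are rich in Hspb1 and in the related Cryab. The muscle sum was lowest in the late dust pool, as were 3 of the 4 Hspb1 probe sets, and highest in the untreated pool, while those 3 were highest in the early dust pool. Acta1, skeletal actin and a member of this list, was also lowest in the late dust pool but, unlike the sum, highest in the early one. Neutrophil markers (4 of 9 listed above the floor) summed to 36910, 54488 and 41794, against 22901 and 7953, most of it Lcn2, which epithelium also makes. Of these 4, 3 were higher in the early (S100a8, S100a9 and Padi4), 3 in the intermediate and 1 (Padi4) in the late dust pool, and the receptor Cxcr2 was under the floor on all 5. Macrophage and monocyte markers (5 of 10 listed above the floor) summed to 47795, 68045 and 68002, against 54348 and 49956, most of it Lyz2. Of these 5, 2 were higher in the early, 1 in the intermediate and 3 in the late dust pool. The part of these cells in the heat shock values was not tested. In lung pools more cells of a type and more RNA per cell cannot be told apart.

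Around the 4 genes, 33 other genes of the cytosolic, mitochondrial and regulatory chaperone lists were above the floor. Of these, 1 was higher in the early dust pool and 0 lower, where 2.54% and 0.3% of the 3667 named genes above the floor were. On the intermediate and late arrays 0 were higher and 0 lower, where 0.873% and 0.6% of named genes were higher and 0.218% and 1.04% lower. Relative to the mean of both controls their median log2 difference was 0.18, 0.28 and 0.14 in the early, intermediate and late dust pools, beside -0.01, 0.09 and 0.07 over the named genes.

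Within the HSP70 family list, which leaves out Hspa8 because both of its probe sets carry a second gene name, 4 of 6 measured members were above the floor, and Hspa1a and Hsph1 were the 2 that passed. Hspa4, an HSP110 relative of Hsph1, read 547, 728 and 854 in the 3 dust pools, against 630.0 and 747 in the saline and untreated pools. Hspa13, an HSP70-like protein of microsomes, read 206 in the intermediate dust pool and under the floor in the early and late dust pools, against 254 and 269.8 in both controls. Hspa1l and Hspa2, relatives best known from testis, were under the floor on all 5 arrays. Neither Hspa4 nor Hspa13 was highest in the early dust pool.

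Of 9 HSP70 co-chaperones 0 passed on any array by the brightest probe set of each (median log2 differences of 0.30, 0.24 and 0.08). Dnaja1, a J-domain protein that stimulates HSP70's ATPase, read 5583, 4907 and 4441 in the 3 dust pools, against 3408 and 2413 in the saline and untreated pools. Its early value was 1.64-fold of sham and 2.31-fold of untreated. Its second probe set gave 2.30-fold and 2.33-fold and so passed. Dnajc5, a J-domain protein of secretory vesicles, was at 1.37-fold and 1.11-fold in the early dust pool. Dnajb1, the main stress-inducible J-domain partner of Hspa1a and singled out after its values were seen, read 2386 in the early dust pool, 2.26-fold and 1.905-fold of the controls. Its second probe set gave 2.15-fold and 2.99-fold and so passed as well.

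Among 7 genes of HSP90 and its co-chaperones 0 passed by the brightest probe set of each (medians of 0.16, 0.42 and 0.09). Hsp90ab1, the constitutive cytosolic HSP90, read 20442, 30166 and 24384 in the 3 dust pools, against 19537 and 20113 in the saline and untreated pools. Its highest value was in the intermediate dust pool, as was that of Cdc37, the co-chaperone that brings kinases to HSP90, at 7841 against 5984 and 5989. Stip1, which links HSP70 to HSP90 and was singled out after its values were seen, was at 1.81-fold and 1.73-fold of the controls in the early dust pool, 1.61-fold and 1.55-fold in the intermediate and 1.56-fold and 1.49-fold in the late dust pool.

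Of the 5 small heat shock proteins, Hspb1 among them, 0 passed on any array, and the list medians were -0.19, -0.04 and -0.33. Cryab, the small heat shock protein of muscle and lens, read 6254, 6948 and 4575 in the 3 dust pools, against 6667 and 7659 in the saline and untreated pools. The untreated pool was highest. Of 7 mitochondrial chaperones and CCT subunits 0 passed (medians of 0.24, 0.36 and 0.26). Hspd1 and Hspe1, the mitochondrial HSP60 and HSP10 that work as a pair, were at 1.93-fold and 1.78-fold of sham and 2.02-fold and 1.59-fold of untreated in the intermediate dust pool.

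In the list of heat shock factors and other inducible genes, Hmox1, the heme-degrading oxygenase, was the 1 of 4 that passed, in the early dust pool. It read 15565, 7293 and 4583 in the 3 dust pools, against 4745 and 1699.98 in the saline and untreated pools, 3.28-fold and 9.16-fold at the early times. Its second probe set, J02722cds_at, read 6190 in the early dust pool, against 799 in the saline and 211 in the untreated pool. This was 7.75-fold and 29.3-fold. Hmox1 also answers to Nrf2 and other factors. Hsf1 itself, singled out after its values were seen, read 1773, 1861 and 2055 in the 3 dust pools, against 1265 and 1433 in both controls, at most 1.62-fold. Its other probe sets differed from this one: X83094cds_at was at 2.82-fold of sham and 1.42-fold of untreated in the early dust pool, and rc_AI172097_at at 1.24-fold and 0.911-fold.

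Endoplasmic reticulum chaperones respond to a separate sensor system. The list of 11 genes above the floor also holds Ddit3, a transcription factor and no chaperone. Of the 11, 8 had their highest value in the intermediate dust pool and 3 (Hyou1, Dnajb9 and Ddit3) in the early one. After quantile normalization the counts were 7 and 4, with P4hb highest in the early dust pool. No share of all named genes was computed beside these counts. At 2-fold against both controls, 1 was higher in the early dust pool (Dnajb9, 2.24-fold and 2.15-fold), 2 in the intermediate dust pool (Hspa5, 2.41-fold and 2.73-fold, and Pdia6, 2.34-fold and 2.09-fold) and 0 in the late dust pool, where 2.54%, 0.873% and 0.6% of named genes were. Dnajb9 did not pass with 75th percentile scaling, nor Pdia6 with values as deposited or after quantile normalization. Over the 11 genes the median log2 difference was 0.34, 0.78 and 0.34. Hspa5 read 6876, 9826 and 5239.7, against 4076 and 3594 in the saline and untreated pools. Some other probe sets of P4hb, Canx, Calr and Hsp90b1 were highest in the early dust pool. The difference between these genes and Hspa1a was not tested.

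**Figure D4:**
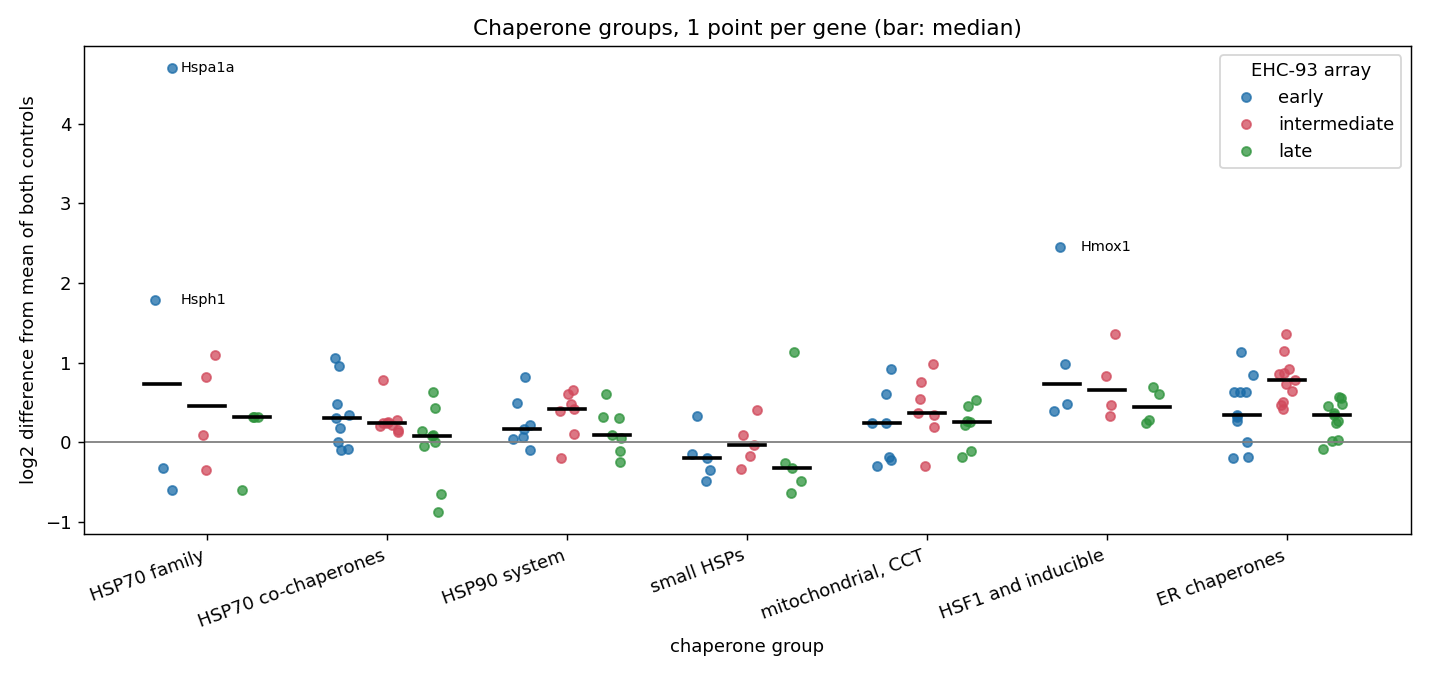
Log2 difference from the mean of both controls for each gene of the chaperone lists above the floor, with 1 point per gene, colours for the early, intermediate and late EHC-93 arrays, and bars at the group median. Hspa1a (4.70, Z75029_s_at), Hmox1 (2.45) and Hsph1 (1.79) stand apart in the early dust pool, and the endoplasmic reticulum group is highest in the intermediate dust pool, with a median of 0.78.

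In the promoter windows of the measured genes of the chaperone lists, 3 adjoining heat shock units were also found for Dnaja1, Chordc1, Hspd1, Hspe1 and Serpinh1. Among genes with a window, these were 1 of 7 HSP70 co-chaperones, 1 of 7 in the HSP90 list and 2 of 7 mitochondrial chaperones and CCT subunits. In the list of heat shock factors and other inducible genes it was 1 of 2. The HSP70 family list had 1 of 4 (Hsph1) and the small heat shock proteins 0 of 3. None of the 9 genes of the endoplasmic reticulum list with a window held 3 units, and nothing is read from this count. Serpinh1, also a chaperone of that compartment, was counted in the list of heat shock factors and other inducible genes. Among the named genes that were higher in the early dust pool, 73 had a window and 1 of them, Hsph1, held 3 units (1.37%). Hsph1 was chosen from these same contrasts, and Hspa1a, whose window is not read, counts among the 73. Over the 3014 named genes above the floor with a window the share was 0.564%. These shares are descriptions of letters near annotated starts, and nothing is read from their difference.

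Other genes had patterns close in shape to these over the 5 arrays, where r takes no account of the size of a difference. The likeness was Pearson's r of log2 values with the brightest probe set of each gene, among 489 named genes above the floor on all arrays with at least a 2-fold range. Nearest to Hspa1a (L16764_s_at) were the glutamate transporter Slc1a1 (r = 0.9998), tissue factor F3 (0.9956), the immediate early gene Ier3 (0.99), the potassium channel Kcnk1 (0.99) and Hivep2 (0.99). These values rest largely on the early array. Slc1a1 read 2139, 1259 and 1236 in the 3 dust pools, against 1198 and 1007 in the saline and untreated pools, much smaller differences than those of L16764_s_at. F3 read 10016 in the early, 2705 in the intermediate and 2443 in the late dust pool, against 2249.5 in the saline and 1269 in the untreated pool. Nearest to Hsph1 were superoxide dismutase Sod2 (0.99), the quinone reductase Nqo1 (0.99), the thioredoxin reductase Txnrd1 (0.99), the kinase Jak2 (0.98) and the TNF receptor Tnfrsf1a (0.97). Nqo1 read 5872, 4041 and 2771 in the 3 dust pools, against 2058 and 1989 in the saline and untreated pools, so it also stepped down over the phases.

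Nearest to Hspa8 (M11942_s_at) were Lcn2 (0.98), Gch1 (0.97), Med1 (0.97), LOC102547700 (0.97) and C4bpa (0.96), whose values are lowest in the untreated pool. Lcn2 ran from 5976 in the untreated to 49008 in the intermediate dust pool, whereas M11942_s_at had a 1.66-fold range. Nearest to Hspb1 (rc_AI176658_s_at) were Taok1 (0.9963), Acta1 (0.98), Spry1 (0.97), Slc4a7 (0.95) and Fblim1 (0.95), which like it were highest in the early and lowest in the late dust pool. With 5 points, r is a description of these arrays.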

How the data were processed

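One linear intensity per probe set and array was deposited. That the authors scaled the intensity between arrays is read from the values, since with 2% trimmed off both tails the 5 means ran from 1001.38 to 1001.63. No software is named in the labels. The 59 control probe sets were left out, leaving 8740. Names came from the platform annotation, with 7006 probe sets having 1 symbol, 308 several and 1426 none. From the deposited intensity, values were scaled to a common median, floored at the 40th percentile and taken to log2. For a gene outside the 4, its brightest probe set by mean log2 was used. Calls required at least 2-fold against both controls. No test was made, because the genes were chosen from these contrasts and each group has 1 array. The members and lists were chosen with earlier results of these data known. Per list, passing genes were named, otherwise the 2 with the highest mean. The steps were tested on simulated data. Computation used Python 3.11.15, NumPy 2.4.6 and pandas 2.3.3.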

Additional observations from a re-analysis of the deposited data

How the results depend on the processing

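The count of 4 higher members in the early dust pool was also 4 with values as deposited, 75th percentile scaling, quantile normalization, a floor at the 60th percentile, a 3-fold threshold and the sham array alone as control. It was 6 with a floor at the 20th percentile and at 1.5-fold, and 5 against the untreated array alone. The 1 call in the intermediate dust pool (Hsph1) became 0 with values as deposited, 75th percentile scaling, quantile normalization and a 3-fold threshold, and 3 against the untreated array alone; the late count became 1 against the untreated array alone. Settings with a single control were chosen after seeing the data. The 1 member 2-fold apart between sham and untreated became 2 with 75th percentile scaling, quantile normalization, a floor at the 20th percentile and a 1.5-fold threshold, and 0 at 3-fold. Of the other genes on the chaperone lists, the 1 higher in the early dust pool was Hmox1, not itself a chaperone. The count became 6 at 1.5-fold and 2 with the mean of all probe sets of a gene (Dnajb1 joined Hmox1). At 1.5-fold, 4 were higher in the intermediate dust pool and 1 higher and 1 lower in the late dust pool. With the floor at the 20th percentile 1 was lower in the early dust pool. Where the threshold or floor was moved, its construction changes the count; for the scalings the cause was not tested. The early log2 difference of Z27118cds_s_at was 6.33 with the lower and 3.30 with the higher floor, against 4.70. Over all probe sets the higher share of calls was 87.5%, 70.8% and 37.2% in the early, intermediate and late dust pools, against 80.6%, 42.9% and 23.5% as deposited. No paired analysis was possible because each group has 1 array. Intensity under the floor limits AA848563_s_at, AA108277_at and rc_AA818604_s_at.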

Other observations

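Genes of the chaperone lists other than the 4 were each read above by their brightest probe set. Of the 38 other probe sets of 26 of these genes, 8 were at least 2-fold above both controls in the early dust pool, 2 in the intermediate and 0 in the late dust pool, and none was lower, where 3.17%, 0.824% and 0.566% of all probe sets were higher. For the disulphide isomerase P4hb, M21476_s_at read 1196, 303 and 413 in the dust pools, against 281 and 342 in the saline and untreated pools. This was 4.26-fold and 3.50-fold early, where the representing probe set gave 1.501-fold and 1.598-fold. For calnexin (Canx), L18889_at gave 2.46-fold and 2.997-fold early, where the representing probe set gave 0.923-fold and 0.824-fold. For Hsp90ab1, rc_AI008074_s_at gave 5.30-fold and 2.31-fold, where the representing probe set gave 1.05-fold and 1.02-fold. The remaining probe sets of P4hb, Canx and Hsp90ab1 did not pass early. X02918_g_at of P4hb gave 1.45-fold and 1.33-fold. For Canx, rc_AA893328_at gave 1.71-fold and 1.86-fold, rc_AI010725_at 1.13-fold and 1.05-fold, and rc_AI235707_g_at 1.24-fold and 1.16-fold. For Hsp90ab1, S45392_at gave 1.39-fold and 1.28-fold, and rc_AI007820_s_at 1.13-fold and 1.06-fold. The early array also had the highest 5′ to 3′ ratios; their part in these values was not tested.

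The inducible cytosolic HSP90, Hsp90aa1, shared its probe sets with a pseudogene and was therefore not counted. Looked at after its values were seen, rc_AI176546_at read 19272, 20355 and 16546 in the 3 dust pools, against 13677 in the saline and 12439.8 in the untreated pool. The dimmer rc_AA944397_at, with the same annotation, differed from it. It read 701, 710 and 645 in the 3 dust pools, above the 462 of the saline pool but below the 907 of the untreated pool. The left-out probe set annotated to Asb2 and Hspb1 read 563, 817 and 682, against 825 and 991.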
